A study of Homo sapiens with 24 samples.

Results

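SYT17, ATAD4, LHFPL2, CNKSR3 and ZYG11A were 5 genes whose transcripts were among the most raised after FOXP1 silencing in 1 of 2 ABC-DLBCL lines. They are 5 of 30142 genes on the array and were measured by 7 of its 41000 probes. SYT17, ATAD4 and LHFPL2 were the 3 greatest rises in HBL-1 cells. CNKSR3 and ZYG11A ranked 2 and 3 in OCI-Ly3 cells, after P2RY14. The first 3 genes were chosen by their ratios in HBL-1 and the other pair by those in OCI-Ly3, so these values are described without a test, and tests are given only for lines that did not name the gene and for the difference between the siRNAs.

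DB and K422 are cell lines of germinal centre B-cell-like diffuse large B-cell lymphoma (GCB-DLBCL), and HBL-1 and OCI-Ly3 of the activated B-cell-like subtype (ABC-DLBCL). Cells were transfected with 1 of 2 siRNAs against FOXP1 (siFOXP1_308, called siFOXP1 #1 here, and siFOXP1_309, called #2) or with a non-silencing siRNA (siCtrl). The siRNA was used at 1 µM, and RNA was taken at 48 h. Each of 24 two-colour Agilent arrays compared siFOXP1 RNA in Cy3 with siCtrl RNA of the same line in Cy5, with 3 replicates from independent experiments for each siRNA and line. No dyes were swapped, so silencing and a probe's dye bias cannot be told apart. Values are signals after the scanner software's background subtraction and dye normalisation, and the log2 ratio of siFOXP1 over siCtrl, positive where the transcript was higher on silencing. All 6 B-cell markers examined were well above background in every line, the 4 GCB markers in DB and K422, and the 4 ABC markers in HBL-1 and OCI-Ly3. The GCB markers BCL6 and LMO2 were also well above background in both ABC lines, and the ABC markers BATF and FUT8 in both GCB lines. Among markers of other cell types, the T-cell genes CD3D and CD3G passed as well above background on all 6 K422 arrays (log2 ratios -0.22 and 0.21), CD3E on all arrays of K422, HBL-1 and OCI-Ly3, and the epithelial gene EPCAM on all 6 of HBL-1, where its log2 ratio was -0.21 (limma adjusted p = 4.09e-06, under the 0.5 limit). The epithelial gene KRT18 was well above background in both channels of every array, and the monocyte gene CSF1R in all controls of each line. CSF1R had a log2 ratio of -0.99 in K422 (limma adjusted p = 1.32e-04). The monocyte gene CD14 and the erythroid gene HBA2 passed on all 6 K422 arrays, and the plasma cell genes SDC1, XBP1 and TNFRSF17 in every line. PRDM1, the other plasma cell gene examined, passed in all 6 controls of K422 and OCI-Ly3, in 5 of HBL-1 and in 1 of DB. Its log2 ratio in HBL-1 was 0.73 (limma adjusted p = 0.0119). The part of these genes in the results was not tested. FOXP1 itself was lower on all 6 arrays of each line, with a mean log2 ratio of -1.74 for HBL-1, -1.96 for OCI-Ly3, -2.0 for DB and -1.34 for K422. With its brightest probe siFOXP1 #2 lowered it further than #1 in each line, by a log2 difference between -1.40 (DB) and -0.85 (K422; limma, adjusted p from 3.16e-04 to 0.0246), and its dimmer probe gave differences of -0.56 to -1.01, of which DB alone passed.

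FOXP1 is a forkhead transcription factor that can repress and activate genes in B cells, and its strong expression is a feature of the ABC subtype. The 5 genes belong to unrelated families. SYT17 encodes an atypical synaptotagmin with paired C2 domains, which bind membrane phospholipids in the classical family members. LHFPL2 encodes a membrane protein with 4 transmembrane segments, of the lipoma HMGIC fusion partner family. CNKSR3 is a scaffold of the CNK family, known in kidney cells for restraining RAF-MEK-ERK signalling, the kinase cascade that carries growth factor signals to the nucleus. ZYG11A belongs to a family of substrate receptors for CUL2 ubiquitin ligases, which mark proteins for degradation. ATAD4 is an older symbol; RefSeq calls the gene PRR15L, a little-studied relative of the proline-rich protein gene PRR15.

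What a signal counts is set by the 60-base oligonucleotide that captures the transcript, so the probes are shown first. The probes printed whole are those that lie across an exon junction, which read spliced RNA, and the sole probe of ZYG11A.
SYT17: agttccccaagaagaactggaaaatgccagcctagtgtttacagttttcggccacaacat
LHFPL2 second probe: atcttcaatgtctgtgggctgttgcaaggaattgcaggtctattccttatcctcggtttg
CNKSR3 second probe: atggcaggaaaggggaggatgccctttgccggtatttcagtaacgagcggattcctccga
ZYG11A: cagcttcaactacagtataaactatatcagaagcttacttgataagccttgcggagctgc
On hg18 they read the transcript strand at chr16:19143618-19185718 (plus strand), chr5:77820710-77841399 (minus), chr6:154769431-154773180 (minus) and chr1:53132659-53132718 (plus). The probes with the strongest signal for ATAD4, LHFPL2 and CNKSR3 each lie in a single block of 60 bases, at chr17:43384388-43384447, chr5:77817051-77817110 and chr6:154768241-154768300, all on the minus strand. Their first 30 bases are given so that they can be told from the second probes.
ATAD4: acaacgctggaaaggccgagaacctctttt
LHFPL2 brightest probe: ccaaaagagttaaaggcacgactgggattt
CNKSR3 brightest probe: atatcttggaaagcctcatggtcactaatt

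In HBL-1 the 3 genes named there went from signals at or near background to clear signals. SYT17 signals in siCtrl cells ran from 7.92 to 14.3 and passed as well above background on none of the 6 arrays. With siFOXP1 #1 they were 246, 222 and 186 in replicates 1 to 3, and with #2 they were 452, 347 and 329. All 6 silenced samples lay far above every control sample, and the log2 ratio averaged 4.66 ± 0.71 (SD, n = 6 arrays). As the control level is only a bound, the rise was at least 14.9-fold, taking the dimmest signal that passed as well above background on each array as the control level. Bulk RNA does not tell more cells with a transcript from more of it per cell.

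ATAD4 came second, with a much wider spread. Its HBL-1 control signals ran from 3.66 to 5.02, none well above background. The silenced samples gave 188, 17.3 and 69.9 for siFOXP1 #1 and 191, 36.1 and 134 for #2. The log2 ratio was 4.2 ± 1.34 (SD, n = 6 arrays), with a rise of at least 4.24-fold. The samples of replicate number 1 were highest and those of number 2 lowest with both siRNAs, while the control signal varied little. The number 1 arrays shared a slide with K422 arrays and averaged 5.47 on the log2 ratio scale, against 3.56 for the 4 arrays on the slide that held HBL-1 alone.

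LHFPL2 was the last of the 3 genes named in HBL-1. With its brightest probe the control signals ran from 10.2 to 32.1, well above background on 3 of 6 arrays. The silenced samples gave 170, 208 and 146 for siFOXP1 #1 and 287, 360 and 275 for #2. The log2 ratio of 3.63 ± 0.31 (SD, n = 6 arrays) was the most even of the 3. The second LHFPL2 probe, across the exon junction shown above, did not pass as well above background in either channel of an HBL-1 array, with signals of at most 5.07 on silencing and 6.91 in controls. That probe was the weaker of the pair also where the gene was high, with silenced signals of 58.3 to 101 in DB against 3648 to 6450 for the brightest probe, so the rise in HBL-1 rests on 1 probe.

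OCI-Ly3 named the other pair. CNKSR3 control signals there ran from 4.78 to 13.8, none well above background. On silencing they were 25.4, 39.2 and 41.6 with siFOXP1 #1 and 81.0, 83.5 and 100 with #2, so that every #2 sample lay above every #1 sample. The log2 ratio was 2.85 ± 1.20 (SD, n = 6 arrays) and the rise at least 3.41-fold. The second CNKSR3 probe gave a log2 ratio of 1.01 ± 1.01 in OCI-Ly3 and was well above background in 3 silenced and 1 control sample. It was 0.00 and 0.06 in the replicate number 1 pair, where 1 array had signals of 23.6 and 22.6 in the silenced and control channels.

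ZYG11A gave the dimmest of the 5 rises. Its OCI-Ly3 control signals ran from 3.21 to 4.31, none well above background. The silenced samples gave 18.5, 27.8 and 25 with siFOXP1 #1 and 27.2, 26.8 and 30.4 with #2, all well above background. The log2 ratio was 2.74 ± 0.33 (SD, n = 6 arrays), but the control level allows no more than a rise of at least 1.52-fold to be stated.

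**Figure D1:**
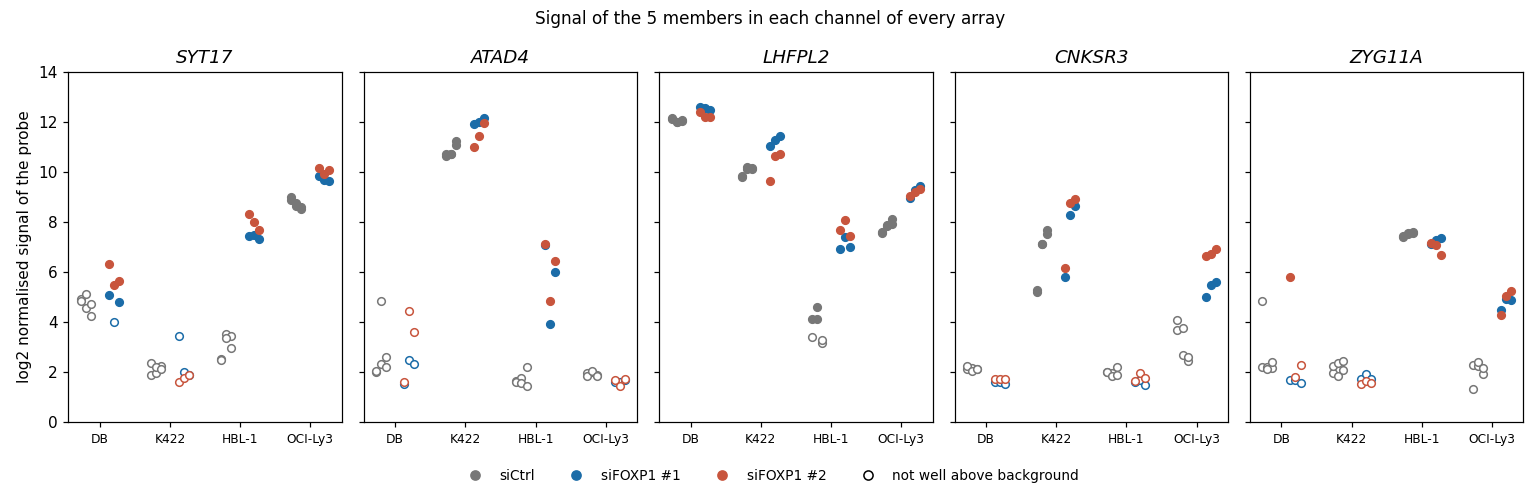
Log2 normalised signal of the brightest probe of each gene (vertical axis) in siCtrl cells (grey) and in cells with siFOXP1 #1 (blue) or #2 (red), for every array of the 4 lines, where open points are not well above background. SYT17 and ATAD4 in HBL-1 and CNKSR3 and ZYG11A in OCI-Ly3 went from open grey points to filled coloured ones, and heights are not comparable between probes.

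The plot of signals by line shows that each gene was well above background in control cells of at least 1 line in which it was not named. For SYT17 the log2 normalised signal of siCtrl cells was highest in OCI-Ly3 (8.74 ± 0.18, SD, n = 6 arrays), followed by DB (4.75), HBL-1 (3.05) and K422 (2.13), with no overlap between neighbours but no well-measured value outside OCI-Ly3. ATAD4 was high in K422 alone (10.85 ± 0.24), and its ranges in DB, OCI-Ly3 and HBL-1 overlapped at background. LHFPL2 was ordered DB (12.06 ± 0.07), K422 (10.03 ± 0.17), OCI-Ly3 (7.82 ± 0.20) and HBL-1 (3.78 ± 0.58), with no overlap at any step. CNKSR3 was highest in K422 (6.65 ± 1.12), then OCI-Ly3 (3.21 ± 0.70, at background), with DB and HBL-1 overlapping below. ZYG11A was well above background in control cells of HBL-1 alone (7.52), a line that did not name it, and its ranges in the other lines overlapped. The members were chosen for their ratios, so these levels are a description and carry no test. DB and OCI-Ly3 arrays were scanned on a different date from K422 and HBL-1 arrays and read with a different software version. A level difference between a line of one pair and a line of the other therefore cannot be told apart from the scan.

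In the lines that had not chosen them, LHFPL2 and SYT17 rose in OCI-Ly3 and ATAD4, LHFPL2 and CNKSR3 rose in K422, while no member passed the test in DB. A call needed an adjusted p under 0.05 over all genes and a log2 ratio of at least 0.5 in size, 1.41-fold, in a limma model of all 24 arrays. In OCI-Ly3, where 2.8% of all genes tested were called higher and 1.62% lower, 2 of the 3 genes named by HBL-1 passed. In K422, where 2.34% were called higher and 2.1% lower, 3 of 5 passed, but ATAD4 and LHFPL2 lost their K422 calls under some of the alternatives given below. In DB, where 1.33% were called higher and 0.829% lower, 0 of 5 passed; 2 had an unadjusted p under 0.05 and the test that the study's methods name (the methods' test) also called 0. In HBL-1, where 5.73% were called higher and 4.17% lower, 0 of the 2 genes named by OCI-Ly3 passed with limma, 1 had an unadjusted p under 0.05 in the opposite direction, and the methods' test called 0. 

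LHFPL2 was the only member higher on 6 of 6 arrays in DB, HBL-1 and OCI-Ly3. In OCI-Ly3 its brightest probe read 143, 191 and 240 in the controls of siFOXP1 #1 and 368, 511 and 601 on silencing, and 128, 180 and 197 against 356, 466 and 515 with #2. Every array gave nearly the same ratio, and the log2 ratio was 1.39 ± 0.05 (SD, n = 6 arrays; limma, SE 0.09, adjusted p = 3.41e-08). The second probe was not well above background in either channel there (log2 ratio 0.01), so this rise also rests on 1 probe, and the mean over probes was 0.70. In DB, where the gene was brightest, the signals were 3262 to 4844 in controls and 3648 to 6450 on silencing. The log2 ratio in DB was 0.34 ± 0.16 (SD, n = 6 arrays; limma adjusted p = 0.0228), which is under the 0.5 limit. In K422 the log2 ratio was 0.76 ± 0.56 (SD, n = 6 arrays; limma adjusted p = 2.16e-05).

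The K422 mean of LHFPL2 hides a split between the siRNAs. With siFOXP1 #1 the log2 ratios were 1.23, 1.09 and 1.28, and with #2 they were -0.19, 0.53 and 0.61, so the sets did not overlap. The difference of #2 minus #1 was -0.89 (limma, SE 0.19, adjusted p = 0.0732), short of the threshold, while 0.159% of all genes passed it. It passed with arrays of one line and replicate number as a block (adjusted p = 0.0141), as the mean over probes (-1.03, adjusted p = 0.0253) and without replicate 3 of HBL-1 (adjusted p = 0.0285), and was -0.62 without replicate 1 of K422 (adjusted p = 0.394). The direction was opposite to the strength of FOXP1 knockdown, which was greater with #2. The second LHFPL2 probe had the same split in K422, with 0.86, 1.01 and 1.07 for #1 and -0.63, -0.39 and 0.47 for #2 (difference -1.17, limma adjusted p = 0.0883). Its K422 control signals were well above background on only 2 of 6 arrays. In DB, where both channels of that probe were well above background on all 6 arrays, its log2 ratio was -0.04 ± 0.25 (SD, n = 6 arrays; limma adjusted p = 0.994) beside 0.34 for the brightest probe.

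SYT17 in OCI-Ly3 was the best measured case of the gene, with both channels well above background on 6 of 6 arrays. Control signals were 357, 353 and 346 beside siFOXP1 #1 and 347, 309 and 303 beside #2. On silencing they were 689, 674 and 701 with #1 and 760, 763 and 877 with #2, above every control. The log2 ratio was 1.15 ± 0.24 (SD, n = 6 arrays; limma, SE 0.20, adjusted p = 6.64e-04). In DB the control signals were never well above background and the silenced ones were on 5 of 6 arrays, with log2 ratios of 0.16, -0.56 and 0.08 for #1 and 1.46, 0.34 and 1.38 for #2. Their mean of 0.48 ± 0.79 (SD, n = 6 arrays) did not pass (limma adjusted p = 0.156) and was 0.77 without replicate 2 of DB (adjusted p = 0.0513), nor did the difference between the siRNAs of 1.17 (SE 0.41, adjusted p = 0.287). In K422 no sample passed as well above background, and 5 of 6 ratios were exactly 0, the value the scanner software sets where both channels are at background.

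ATAD4 stood out in K422, the line with a high control level. Control signals ran from 1561 to 3023 and silenced ones from 1937 to 5220. The log2 ratios were 1.27, 1.25 and 1.1 with siFOXP1 #1 and 0.31, 0.72 and 0.71 with #2, higher on 6 of 6 arrays. The mean of 0.89 ± 0.38 (SD, n = 6 arrays) passed narrowly (limma, SE 0.30, adjusted p = 0.0435). The limma error is shared by all lines, and both the wide spread of ATAD4 in HBL-1 and its 6 ratios of exactly 0 in OCI-Ly3 enter it. Leaving out single replicates ended the call in 9 of 12 cases, among them each of the 3 of K422 (log2 ratio 0.85 to 0.94, limma adjusted p 0.125 to 0.168). The call was also lost without each of the 3 of OCI-Ly3, and for HBL-1 only without replicate 3. The reason was not tested. The siRNAs differed by -0.62 (SE 0.60, limma adjusted p = 1), again lower with #2. In OCI-Ly3 all 6 ratios were 0 with no channel above background, and in DB no channel was well above background either, with a log2 ratio of 0.15 ± 0.47 (SD, n = 6 arrays).

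CNKSR3 also rose in K422, by both of its probes. For the brightest probe both channels of all 6 arrays were well above background, with log2 ratios of 0.63, 1.15 and 0.99 for siFOXP1 #1 and 0.90, 1.64 and 1.40 for #2. The mean was 1.12 ± 0.36 (SD, n = 6 arrays; limma, SE 0.20, adjusted p = 5.75e-04). The limma error is shared by all lines and is lowered by DB and HBL-1, where 6 and 5 of 6 ratios were exactly 0. The methods' test, which uses the arrays of 1 line alone, also called CNKSR3 in K422. The second probe gave 1.24 ± 0.48 (limma adjusted p = 6.88e-04) and was well above background in 4 silenced and 2 control samples. The level itself moved between experiments, with control signals of 45.5 and 38.4 on the number 1 arrays, 129 and 132 on the number 2 arrays and 234 and 224 on the number 3 arrays. The silenced samples followed, at 70.2 and 71.8, 286 and 411, and 465 and 593. Arrays of one number thus had like control signals, and silencing raised the signal above its own control in each. In DB and HBL-1 no sample passed as well above background with either probe.

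The siRNA difference of CNKSR3 in OCI-Ly3 was 1.57 in favour of #2 (limma, SE 0.39, adjusted p = 0.157), in the direction of the stronger knockdown. Without replicate 1 or replicate 3 of OCI-Ly3 it passed at 1.74 and 1.75 (limma adjusted p = 0.0255 and 0.0289), as it did with the replicate block (adjusted p = 0.0292). The limma error is shared by all lines, and all 6 DB and 5 of 6 HBL-1 ratios of CNKSR3 were exactly 0, which lowers it. Within OCI-Ly3 the SD was 0.94 for each siRNA, so these limma values overstate the precision there. Over the 5 members and 4 lines, 0 of 20 differences between the siRNAs passed with limma, 3 had an unadjusted p under 0.05, the replicate block called 2 and the methods' test called 0. Over all genes 0.173% were called for HBL-1, 0.192% for OCI-Ly3, 0.302% for DB and 0.159% for K422. In HBL-1 the differences were 0.81 for SYT17 (SE 0.41), 0.81 for ATAD4 (SE 0.60) and 0.19 for LHFPL2 (SE 0.19). These SEs come from a fit that does not pair arrays by replicate number. SYT17 had log2 ratios of 4.9, 4.0 and 3.9 with #1 and 5.8, 4.6 and 4.7 with #2, higher with #2 in each replicate number. ATAD4 had 5.4, 2.2 and 3.8 with #1 and 5.5, 3.3 and 5.0 with #2, also higher with #2 in each. The values thus do not show that the siRNAs acted alike on these genes.

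**Figure D2:**
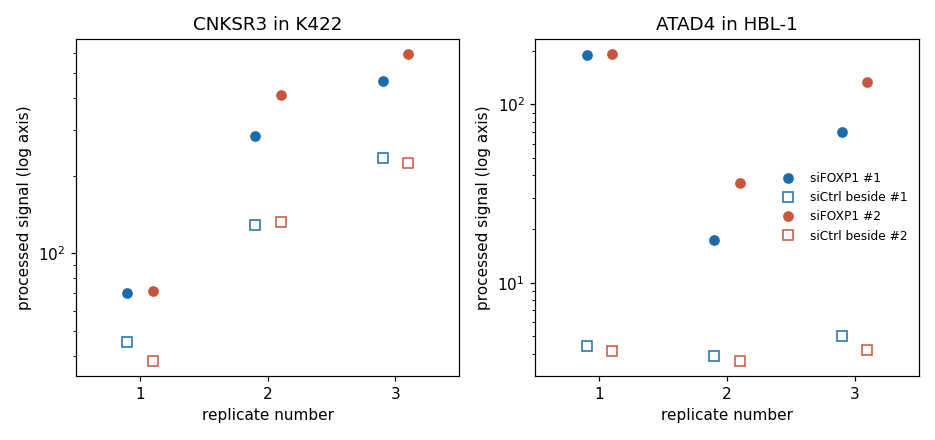
Processed signal (log axis) by replicate number for CNKSR3 in K422 and ATAD4 in HBL-1, with filled circles for siFOXP1 and open squares for the siCtrl channel of the same array. Control signals of CNKSR3 range from 38.4 to 234 and those of ATAD4 from 3.66 to 5.02, and all silenced samples lie above their own control.

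ZYG11A in HBL-1 lay on the other side of 0. Both channels of all 6 arrays were well above background, with control signals of 235, 220 and 226 beside siFOXP1 #1 and 226, 239 and 293 beside #2. Silenced signals were 185, 185 and 191 with #1 and 189, 174 and 158 with #2, all below every control. The log2 ratio was -0.41 ± 0.25 (SD, n = 6 arrays; limma, SE 0.13, adjusted p = 0.0220), below 0 on 6 of 6 arrays but short of the 0.5 limit of a call. In DB it was above background in 1 sample, with signals of 48.9 and 24.6 in the silenced and control channels of that array where the other 5 arrays had at most 3.84 and 5.32. In K422 no sample passed as well above background, with a log2 ratio of -0.26 ± 0.41 (SD, n = 6 arrays; limma adjusted p = 0.183).

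**Figure D3:**
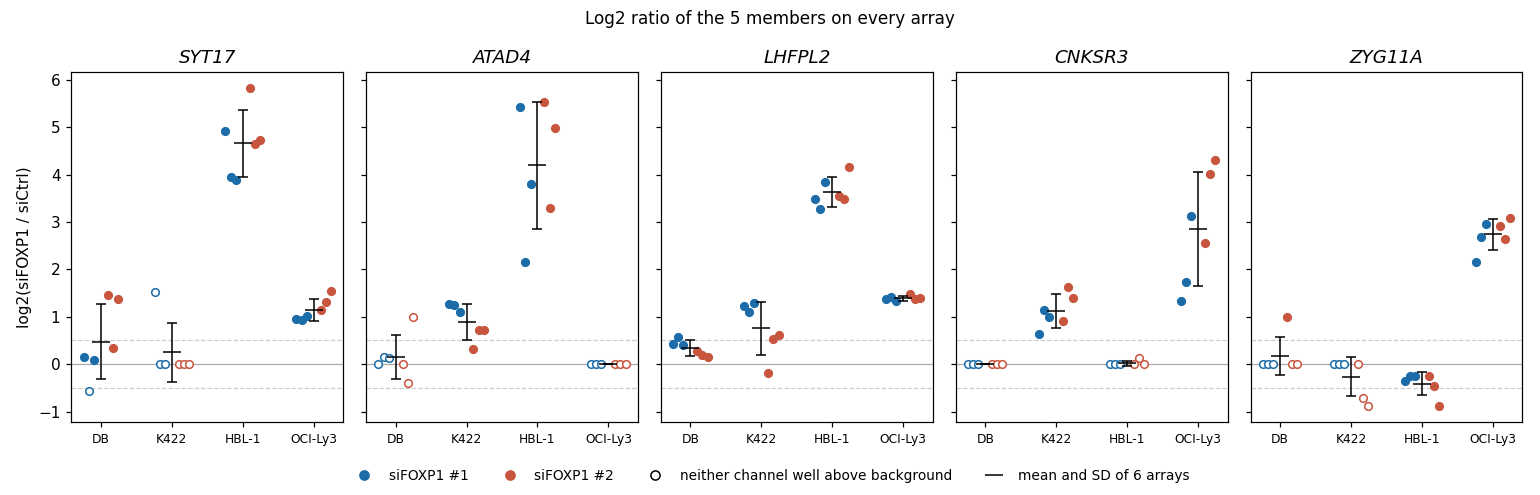
Log2 ratio of siFOXP1 over siCtrl for each of the 6 arrays of a line (blue, siFOXP1 #1; red, #2; open, neither channel well above background), with mean and SD in black and the 0.5 limit dashed. LHFPL2 lies above 0 on all arrays except 1 of K422, and ZYG11A is above 0 in OCI-Ly3 (2.74) and below 0 in HBL-1 (-0.41).

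Just outside the choice lay AW136683 in HBL-1, an unnamed expressed sequence with a log2 ratio of 3.56 after the 3.63 of LHFPL2, and ACTL8 in OCI-Ly3 with 2.55 after the 2.74 of ZYG11A. P2RY14, a receptor for UDP-glucose, was above both named genes in OCI-Ly3 with 3.31. In that line LHFPL2 ranked 29 and SYT17 ranked 55 among 3252 genes that rose on all 6 arrays with a measured channel. The ratios that set these ranks rest on signals near background. With normexp background correction and an offset of 50, which damps such ratios, SYT17, LHFPL2 and ATAD4 had log2 ratios of 1.42, 1.22 and 1.02 in HBL-1 and ranked 17, 29 and 50, and CNKSR3 and ZYG11A had 0.64 and 0.41 in OCI-Ly3 and ranked 90 and 453. The bounds on the rises then were at least 2.48-fold for SYT17, 1.84-fold for ATAD4, 1.55-fold for CNKSR3 and 1.25-fold for ZYG11A.

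Across the 24 arrays the genes named by one line ran together, which their choice favours. The Pearson correlation of log2 ratios was 0.865 to 0.913 among SYT17, ATAD4 and LHFPL2, and 0.79 between CNKSR3 and ZYG11A, while pairs across the lines had -0.508 to -0.179. The genes most like SYT17 were KIAA1737 (r = 0.951), the gluconeogenic enzyme gene FBP1 (0.949) and the CTP synthase gene CTPS2 (0.945). Most like ATAD4 were CD4 (0.948), SPATA2L (0.944) and IRF8 (0.943), a transcription factor of germinal centre B cells. LHFPL2 had the interferon-induced IFITM1 (0.947), the endocytic receptor LY75 (0.946) and the fatty acid desaturase family gene FADS3 (0.944). CNKSR3 had MYRIP (0.913), the sphingosine-1-phosphate receptor S1PR1 (0.878), which guides lymphocyte egress, and CASP9 (0.877). ZYG11A had OLFML2A (0.949), MS4A4A (0.939) and HOXB3 (0.933). These correlations describe 24 arrays of 4 lines, share their controls within an array and mostly follow the difference between lines. The like genes had smaller ratios, as in HBL-1, with 2.23 for FBP1, 1.19 for IRF8 and 1.02 for IFITM1, and in OCI-Ly3, with 1.43 for S1PR1 and 1.35 for MS4A4A.

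Relatives and partners of the members were taken from lists that held 29, 27, 15, 5 and 1 genes on the array. Over all of these lists, 7 genes were called in either direction for HBL-1, 3 for OCI-Ly3, 2 for DB and 2 for K422. In these lines 5.73%, 2.8%, 1.33% and 2.34% of all genes were called higher and 4.17%, 1.62%, 0.829% and 2.1% lower. PRR15, the relative of ATAD4, rose in HBL-1 by 0.74 ± 0.35 on the log2 scale (SD, n = 6 arrays; limma adjusted p = 0.00367), on 6 of 6 arrays and well above background in both channels. The call was lost as the mean over probes (0.37) and with normexp and loess (0.28). Its ratios in DB, K422 and OCI-Ly3 were 0.26, 0.25 and 0.10 and did not pass. Of 5 relatives of LHFPL2 none passed in any line with limma, none had an unadjusted p under 0.05 and the methods' test called 0, but at most 3 of the 5 were measured above background in a line. Of 29 synaptotagmins and C2-domain relatives on the array 0 were called higher in any line with limma, and SYT9 was called lower in DB (-0.76) and OCI-Ly3 (-0.64) from signals well above background on 2 or 3 arrays. With normexp and loess SYT9 was at -0.08 in both lines, and as the mean over probes at -0.22 and -0.24, with no call. Their median log2 ratio was 0 in every line, as was that of all genes, and 12 or 13 were above background. With an unadjusted p under 0.05 in either direction there were 4 for HBL-1, 2 for OCI-Ly3, 5 for DB and 7 for K422, and the methods' test called 1, in OCI-Ly3.

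Among 27 genes of the CNK, KSR and RAF-MEK-ERK list, 0 were called in DB with limma and 1 in each other line, all higher. Of all genes, 2.34% were called higher for K422, 5.73% for HBL-1, 2.8% for OCI-Ly3 and 1.33% for DB. In DB 8 had an unadjusted p under 0.05, and the methods' test called 0. SPRED1, an inhibitor of RAS-ERK signalling, rose in K422 (0.60 ± 0.25, SD, n = 6 arrays; limma adjusted p = 1.06e-05). MAPK3, which encodes the kinase ERK1, rose in HBL-1 (0.62 ± 0.17; limma adjusted p = 1.46e-06). MAPK3 was also above 0 on 6 of 6 arrays in each other line, at 0.36 in DB, 0.44 in K422 and 0.47 in OCI-Ly3, under the 0.5 limit. SPRY4, another inhibitor like SPRED1, was called in OCI-Ly3 at 0.72 ± 0.59, but was well above background in only 2 silenced and 0 control samples. Under both normexp settings SPRED1 (0.38 and 0.32) and SPRY4 (0.17 and 0.18) were not called. The other scaffolds of the CNK family were at or near background, CNKSR2 throughout and CNKSR1 apart from 1 silenced and 1 control sample of OCI-Ly3. The list medians were 0.06 for HBL-1, -0.01 for OCI-Ly3, -0.08 for DB and 0.06 for K422.

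Of 19 genes in the ZYG11 and CUL2 ligase list 15 were on the array, and all 15 were above background in every line. KLHDC3, a CUL2 substrate receptor, was called higher in all 4 lines, at 0.66 for HBL-1, 0.51 for OCI-Ly3, 0.52 for DB and 0.55 for K422, just past the limit (limma adjusted p from 7.15e-07 to 6.37e-05). With normexp and median centring it was called in OCI-Ly3 alone, at 0.43 to 0.51. As the mean over probes KLHDC3 was not called in DB (0.45) or OCI-Ly3 (0.48), and the methods' t-test did not call it in DB (adjusted p = 0.0767). In HBL-1, where ZYG11A was at -0.41, its relative ZER1 rose by 0.86 ± 0.26 (SD, n = 6 arrays; limma adjusted p = 4.49e-07). ZER1 lay at 0.47 in K422 and 0.41 in OCI-Ly3 on 6 of 6 arrays, under the limit, and ZYG11B at 0.15 to 0.34. The substrate receptors FEM1B (-0.61), FEM1C (-0.58) and PPIL5 (-0.60, named LRR1 today) fell in HBL-1, and CUL2 itself lay at -0.33 there, under the limit. So in HBL-1 2 of 15 rose, 3 fell and 10 were not called, around a list median of 0.01, while 5.73% of all genes were called higher and 4.17% lower. With normexp and loess ZER1 (0.59), KLHDC3 (0.71) and MAPK3 (0.51) were still called in HBL-1, and FEM1B (-0.37), FEM1C (-0.36) and PPIL5 (-0.44) were not. With normexp and median centring PPIL5 (-0.65) was called there, and ZER1 (0.47), KLHDC3 (0.44), MAPK3 (0.32), FEM1B (-0.49) and FEM1C (-0.48) were not. As the mean over probes PPIL5 was -0.42 in HBL-1 and not called.

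**Figure D4:**
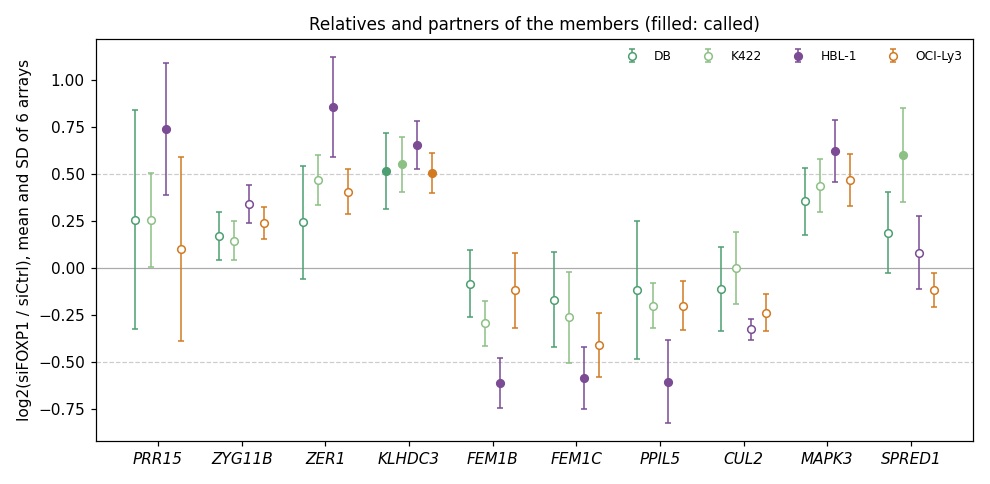
Mean log2 ratio and SD of 6 arrays for named relatives and partners of the members in each line, filled where called. As normalised by the scanner software and by its brightest probe, KLHDC3 is called in all 4 lines (0.51 to 0.66). With normexp and median centring it is called in OCI-Ly3 alone, and as the mean over probes in HBL-1 and K422 alone. In the first setting PRR15, ZER1, FEM1B, FEM1C, PPIL5 and MAPK3 are called in HBL-1 only, a difference between lines that was not tested.

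Some genes within 100 kb of a member's probe were called where the member rose and others were not, and a link was not tested. ECHDC2, whose probe lies 1775 bp from that of ZYG11A, rose in DB (1.05), K422 (0.74) and OCI-Ly3 (0.75; limma adjusted p = 6.04e-04) and lay at 0.40 in HBL-1, above 0 but under the limit. In DB its controls were not well above background, and with normexp and loess the ratios in DB and K422 were 0.06 and 0.09, while that in OCI-Ly3 was 0.59 and kept its call. ZYG11B and SCP2, the other neighbours of ZYG11A, were not called in any line. Near ATAD4, CDK5RAP3 at 26790 bp rose in K422 (0.53, limma adjusted p = 7.64e-06) and lay at 0.42 in HBL-1, under the limit. With normexp and median centring CDK5RAP3 was 0.25 in K422 and not called. NFE2L1 at 96121 bp, a transcription factor of the oxidative stress and proteasome response, rose in HBL-1 (0.55, limma adjusted p = 3.30e-06) and lay at 0.30 in K422. In HBL-1 the mean over its probes was 0.04 and the value with normexp and median centring -0.04. SP2 and COPZ2, also near ATAD4, lay between -0.15 and 0.16 in the 4 lines. SCAMP1, 6433 bp from an LHFPL2 probe, lay at -0.32 in OCI-Ly3 and -0.35 in HBL-1, opposite in sign to LHFPL2 and under the limit. No gene with a symbol had a probe within that distance of SYT17 or CNKSR3.

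RefSeq promoter sequences (GRCh38.p14, 250 bases before to 50 after a start) were at hand for LHFPL2, CNKSR3 and ZYG11A. The windows of LHFPL2 (GC content 82%) and ZYG11A (74.7%) were richer in G and C than the median promoter (58.7%), and the 4 start sites of CNKSR3 ran from 37% to 76%. On both strands the forkhead letters TGTTTA, and the longer TGTTTAC that contains them, were searched beside TATTTAC. They occur in 12.3%, 3.42% and 2.67% of 35116 such windows. The only match was TGTTTA on the opposite strand just downstream of 1 start site of CNKSR3 (chr6:154478442-154478741, minus strand), shown with its surroundings and the match in capitals because it is the sole one.
CNKSR3 start region: gacacatgaaTAAACAcggtgcagtc
The match describes these letters and no binding was measured here.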

How the data were processed

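The authors hybridised RNA to two-colour Agilent 44K arrays and deposited Feature Extraction output (version 10.5.1.1 for DB and OCI-Ly3, 10.7.3.1 for K422 and HBL-1), which holds each channel's processed intensity, background-subtracted and loess-normalised, their log10 ratio (Cy5 over Cy3) and hg18 positions. A matrix the authors deposited holds log2 ratios of the same arrays. The log2 ratio of siFOXP1 over siCtrl was averaged over the spots of each probe without control and outlier spots, and the brightest probe represented its gene. R 4.3.3 with limma 3.58.1 fitted 8 groups of line and siRNA over 24 arrays, a line's value being the mean of its 2 siRNAs, with Benjamini-Hochberg adjustment over all genes. Per array, 57.8% to 65.2% of probes passed as well above background in a channel. Precision is limited by the 3 independent experiments per siRNA and line. The main fit treats the 6 arrays of a line as independent. Its error for a gene is shared by all lines, so ratios set to exactly 0 at background enter it without spread. Arrays of one line and replicate number had a consensus correlation of 0.248 in the replicate block. Whether they shared their siCtrl RNA is not stated. Levels are log2 signals after Aquantile between arrays. The fit was tested on simulated data. Members, gene lists and tests were chosen with earlier results of these data known. Named genes are the members, FOXP1, the next in rank, the 3 most correlated per member, genes within 100 kb and the listed relatives called in HBL-1 or OCI-Ly3. Those called in K422 or DB, P2RY14, BCL6, LMO2, BATF, FUT8, CD3D, CD3E, CD3G, EPCAM, KRT18, CSF1R, CD14, HBA2, SDC1, XBP1, TNFRSF17, PRDM1, CUL2, ZYG11B, CNKSR1 and CNKSR2 were named after their values were seen. Alternatives were 2 normexp (offset 50) normalisations, the deposited matrix, a filter on dim probes, the mean over probes, replicate or slide as a block, the methods' t-test and leaving out each replicate, beside normexp-based bounds chosen after seeing the data. A neighbour of a member is not reported here.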

Additional observations from a re-analysis of the deposited data

Results flagged for a closer look

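Of 18 sets of 6 arrays (a member in a line) with any spread, 4 held 1 array set apart from the others by Dixon's criterion. The chance figure of about 0.9 does not apply to sets in which all other ratios are exactly 0, as any other value is then set apart whatever its size. Such sets were SYT17 in K422, CNKSR3 in HBL-1 and ZYG11A in DB. SYT17 in K422 was 1.53 with siFOXP1 #1 in replicate 1 and 0 on the other arrays. CNKSR3 in HBL-1 was 0.13 with siFOXP1 #2 in replicate 2 and 0 on the other arrays. Neither channel was well above background on those arrays. ZYG11A in DB was 0.989 with siFOXP1 #2 in replicate 1, an array on which the silenced channel was well above background, and 0 on the others. ZYG11A in HBL-1 was -0.888 with siFOXP1 #2 in replicate 3, against -0.46 to -0.24 on the other arrays, all well above background in both channels. ZYG11A was below 0 on all 6 HBL-1 arrays and above 0 on all 6 OCI-Ly3 arrays, a difference of 3.15 on the log2 scale that was not tested.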

How the results depend on the processing

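Calls of members changed as follows. SYT17 and LHFPL2 in OCI-Ly3 and CNKSR3 in K422 were called under all 20 alternatives. In K422 ATAD4 lost its call under 11 of the 20, with an adjusted p of 0.0527 to 0.168, LHFPL2 with normexp and median centring (0.57, adjusted p = 0.102) and with the methods' t-test (adjusted p = 0.0948). No alternative called a member in DB, or CNKSR3 or ZYG11A in HBL-1. The siRNA difference of LHFPL2 in K422 passed as the mean over probes and with slides as a block (1 member difference called in each, against 0), and without replicate 3 of HBL-1 (adjusted p = 0.0285); that of CNKSR3 in OCI-Ly3 passed in 2 leave-outs named above. Signals near background limit the ratios of SYT17, ATAD4, CNKSR3 and ZYG11A in the lines that named them, and the cause of the changes below was not tested.

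Same-numbered arrays of the 2 siRNAs deviated together with correlations of 0.0906 to 0.535 over 17165 genes, above 0.1 in all 9 pairs of DB, K422 and HBL-1 and in 1 of 3 of OCI-Ly3. Pairing was to be taken only where all 12 passed 0.1, which was not met. With a replicate block, 2 member differences between siRNAs were called (LHFPL2 in K422 and CNKSR3 in OCI-Ly3, adjusted p = 0.0141 and 0.0292), ATAD4 in K422 lost its call (adjusted p = 0.0602), and genes with a siRNA difference came to 140 for HBL-1, 149 for OCI-Ly3, 322 for DB and 140 for K422, against 52, 58, 91 and 48. With slides as a block these were 178 in DB and 76 in K422, genes called higher in DB were 249 and listed relatives called in OCI-Ly3 were 1.

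The main counts of genes called higher and lower were 1727 and 1258 for HBL-1, 845 and 487 for OCI-Ly3, 402 and 250 for DB and 706 and 632 for K422, and of listed relatives 7, 3, 2 and 2. With normexp and loess they were, in that order, 690 and 288, 236 and 71, 49 and 31, and 157 and 98, with 3, 1, 1 and 1 relatives and siRNA differences in 25 genes for HBL-1, 26 for OCI-Ly3 and 57 for DB. With normexp and median centring they were 157 and 1871, 147 and 119, 11 and 37, and 79 and 400, with 3 relatives for HBL-1, 1 for OCI-Ly3 and 0 for DB and siRNA differences in 0, 0, 0 and 1 genes. In the deposited matrix, whose median in HBL-1 is -0.106, genes called lower were 1559 in DB, 974 in K422 and 1044 in OCI-Ly3, relatives 10 in DB and 6 in OCI-Ly3, and siRNA differences 27 for HBL-1, 29 for OCI-Ly3 and 31 for K422. The share called higher was 57.9% for HBL-1, 63.4% for OCI-Ly3, 61.7% for DB and 52.8% for K422, against 70.6%, 76.9%, 61.2% and 61.6% with normexp and loess, 7.74%, 55.3%, 22.9% and 16.5% with median centring, and 53.2%, 45.8%, 23.9% and 42.1% in the matrix. As the mean over probes, relatives were 0 in DB and 1 in OCI-Ly3. The methods' t-test called 525 and 291 for OCI-Ly3, 28 and 25 for DB and 392 and 369 for K422, 0 relatives in DB, and siRNA differences in 0, 1, 1 and 0 genes.

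Leaving out 1 replicate gave 2 to 3 members in K422, 0 to 1 member differences, 354 to 517 genes higher and 218 to 514 lower in DB (514 without replicate 3 of DB), relatives of 2 to 4 in DB, 1 to 4 in K422 and 1 to 3 in OCI-Ly3, and siRNA differences in 35 to 79 genes for HBL-1, 42 to 94 for OCI-Ly3, 70 to 167 for DB and 21 to 99 for K422. Of single members' ratios, 227 of 240 in the leave-outs and 131 of 160 under the other alternatives kept direction and call or, where untested, moved by less than 1 SD between arrays.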
